A study of Mus musculus with 4 samples.

Results

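The nuclear genes of respiratory complexes II to V were the 50 protein-coding genes, of 54532 genes in the count table, whose symbols were Sdha to Sdhd, began with Uqcr, Cox4 to Cox8 or Atp5, or were Cyc1 or Cycs. They comprised 4 genes of complex II, 9 of complex III including Cyc1, the carrier gene Cycs, 18 genes of complex IV and 18 of complex V. The messenger RNA of LL2 cells, a mouse line derived from a Lewis lung carcinoma, was sequenced from poly(A) selected libraries. In 2 libraries the cells had received 20 mM lactic acid in their medium for 24 h, and in 2 control libraries the same volume of PBS for 24 h. All cells were of 1 line, and the libraries of a group are labelled biological replicates with no word on whether they were separate cultures, so p-values measure only the spread between these libraries, which may be technical. The comparison asks which subunit genes changed with lactic acid and how the complexes differed.

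Respiratory complexes II to V sit in the inner mitochondrial membrane. Complex II passes electrons from succinate to ubiquinone, complex III passes them on to cytochrome c, and complex IV hands them to oxygen. Complexes III and IV pump protons, and complex V, the ATP synthase, lets protons flow back through a rotating ring to make ATP. Complex II is encoded in the nucleus alone, whereas complexes III, IV and V each also hold subunits made from the mitochondrial genome.

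Depth was 15501006 to 17409990 counts per library, and levels are given in CPM, the counts scaled to a common library size after TMM normalisation. Of the 50 genes, 42 had enough counts to be tested. Fold changes are log2 ratios of lactic acid over PBS, also where given in brackets without a name, and a gene was called when its edgeR p, adjusted by Benjamini-Hochberg over all 13922 genes tested, was below 0.05. Higher and lower mean relative to the other genes of a library. Of 5 mesenchymal markers, all tested, 1 was lower and 1 higher with lactic acid. Vim had 4061 and 4046 CPM with PBS and 3318 and 3371 CPM with lactic acid (-0.28, adjusted p = 3.65e-22 in edgeR), and Fn1, which encodes fibronectin, 1306 and 1332 CPM and 2003 and 1996 CPM (0.60, adjusted p = 1.55e-33 in edgeR). Of 6 epithelial markers 3 were tested and 1 was lower, the keratin Krt8, with 119 and 116 CPM in PBS and 52.7 and 54.0 CPM in lactic acid (-1.14, SE 0.05, adjusted p = 1.93e-27 in edgeR). Their sum was 222 and 214 CPM with PBS and 153 and 153 CPM with lactic acid, Krt18 stood at 97.2 to 102 CPM, Epcam and Cdh1 had at most 2 reads a library, and the part of these markers in the results on respiratory genes was not tested. None of 6 lung epithelium markers had more than 7 reads in a library, and Nkx2-1 and Sftpa1 were at 0. The leukocyte markers Cd3e, Adgre1 and Itgam were at 0, Ptprc had at most 1 read a library, and Lyz2 had 29 to 41. In bulk RNA, fewer cells that express a gene and less RNA per cell cannot be told apart.

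Most ATP synthase genes were lower with lactic acid, complex IV genes were called in both directions, and most genes of complexes II and III did not pass the test. Of the 42 genes tested, 16 were lower and 7 higher, or 38.1% and 16.7%. Among all genes tested 24.3% were lower and 24.7% higher, and 49.0% were called in either direction. The respiratory genes are abundant, and among the 4748 genes with at least 49.7 CPM, the tenth percentile of the 42, 44.1% were lower, 25.7% higher and 69.8% either. The share lower among the 42 thus lay between that of all genes and that of abundant genes. Their median change was -0.05 on the log2 scale, against 0.01 for all genes tested and -0.07 for the abundant ones. In 19 of the 42 both lactic acid libraries lay below both PBS libraries and in 8 above them. Of all genes tested 35.5% lay below and 36.9% above, 72.3% in either direction. DESeq2 called 14 of the 42 lower and 6 higher. Of all 13922 genes tested it called 2494 lower and 2251 higher, or 34.1% in either direction. With 2 libraries against 2, an exact permutation test of a single value cannot give a two-sided p below 0.333.

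By complex, 9 of 17 tested genes of complex V were lower and 2 higher, with a median change of -0.17 on the log2 scale. These shares of 52.9% and 11.8% stand against 24.3% and 24.7% of all genes tested and 44.1% and 25.7% of the abundant ones. In complex IV 3 of 11 were lower and 4 higher (median -0.04), and in complex III 2 of 9 were lower and 1 higher (median 0.03). In complex II 1 of 4 was lower and 0 were higher (median -0.03). The summed level of complex V was 4802 and 4798 CPM with PBS and 4105 and 4122 CPM with lactic acid, a ratio of 0.857, with the groups well apart. Without Atp5b and Atp5a1, its most abundant genes, the ratio was 0.882. Complex IV summed to 1297 and 1326 CPM with PBS and 1321 and 1327 CPM with lactic acid, and complex III to 981 and 947 against 973 and 954 CPM. In both the groups overlapped. Complex II summed to 649.5 and 647 CPM with PBS and 627 and 626 CPM with lactic acid, a ratio of 0.966. Differences between complexes are given as descriptions and were not tested.

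**Figure D1:**
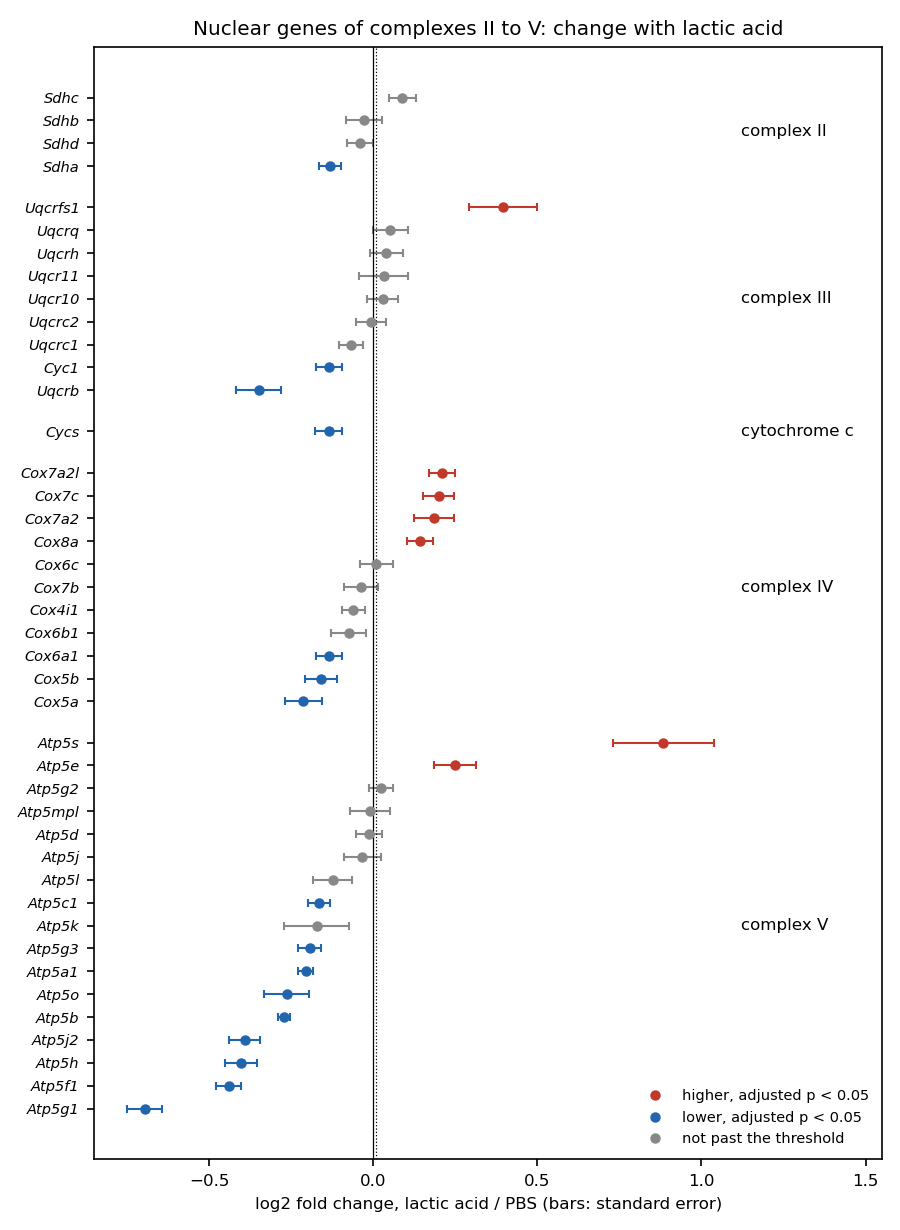
Log2 fold change (x axis, lactic acid over PBS) of each of the 42 genes tested (y axis, grouped by complex), with bars for the standard error. Complex V runs from -0.70 for Atp5g1 to 0.88 for Atp5s with 9 genes called lower, while most genes of complexes II and III lie near 0.

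Promoters were searched because NRF1 and GABPA, a factor of the ETS family, are known regulators of nuclear respiratory genes. RefSeq windows on GRCm38.p6, from 250 bases before to 50 after a gene's start, were matched for 37 of the 50 genes, 33 of them tested. Both strands were searched for the NRF1 letters (GCGC and TGCGC with any 1 base between them), the ETS letters CCGGAAG, the YY1 letters AAGATGGC and the TATA box TATAAA, and 0 matches overlapped. The 37 genes had 40 windows, and a gene counted if any of its windows matched, whereas the shares given for comparison are of single windows. NRF1 letters stood in 10 of the 33 genes, against 9.99% of the windows of all genes tested and 4.60% of all 32851 windows. They stood in 6 of 13 genes called lower, 0 of 7 called higher and 4 of 13 not called. ETS letters stood in 12 of the 33 (17.5% of the windows of genes tested, 8.86% of all), of which 2 of 13 lower, 2 of 7 higher and 8 of 13 not called. YY1 letters stood in 3 (4.47% and 2.75%) and the TATA box in 1 (7.03% and 13.6%). A match describes letters in a window and shows no binding.

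The 250 bases before the start are printed for a called gene of complex II with 3 NRF1 matches (Sdha), for both genes called that hold NRF1 and ETS letters (Cox6a1 and Atp5h, both lower; Sdhd and Atp5k, not called, hold both as well and are not printed), and for a pair of c subunit genes, of which Atp5g1 fell and holds none of these letters while Atp5g2 did not pass and holds the NRF1 letters. The remaining c subunit gene, Atp5g3, was lower, holds NRF1 letters after its start and is not printed. NRF1 and ETS letters on either strand are in capitals in the 5 genes printed. All 5 genes lie on the minus strand and are read 5′ to 3′ along the gene. They are Sdha at chr13:74350241-74350490, Cox6a1 at chr5:115348959-115349208, Atp5h at chr11:115419920-115420169, Atp5g1 at chr11:96075632-96075881 and Atp5g2 at chr15:102671048-102671297.
Sdha: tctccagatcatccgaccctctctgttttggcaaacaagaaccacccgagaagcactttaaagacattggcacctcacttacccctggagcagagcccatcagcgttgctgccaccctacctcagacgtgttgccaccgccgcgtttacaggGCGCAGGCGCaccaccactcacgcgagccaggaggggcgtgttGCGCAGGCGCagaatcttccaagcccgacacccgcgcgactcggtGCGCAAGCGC
Cox6a1: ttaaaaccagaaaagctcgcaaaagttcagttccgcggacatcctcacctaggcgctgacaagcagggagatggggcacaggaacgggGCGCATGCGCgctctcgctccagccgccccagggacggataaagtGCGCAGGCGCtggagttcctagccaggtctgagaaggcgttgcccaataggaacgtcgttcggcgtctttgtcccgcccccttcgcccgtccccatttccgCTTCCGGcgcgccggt
Atp5h: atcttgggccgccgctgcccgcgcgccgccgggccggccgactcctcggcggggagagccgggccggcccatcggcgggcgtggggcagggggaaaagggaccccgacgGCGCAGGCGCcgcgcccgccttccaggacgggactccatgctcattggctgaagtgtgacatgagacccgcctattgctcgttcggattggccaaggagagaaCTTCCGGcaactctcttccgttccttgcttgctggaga
Atp5g1: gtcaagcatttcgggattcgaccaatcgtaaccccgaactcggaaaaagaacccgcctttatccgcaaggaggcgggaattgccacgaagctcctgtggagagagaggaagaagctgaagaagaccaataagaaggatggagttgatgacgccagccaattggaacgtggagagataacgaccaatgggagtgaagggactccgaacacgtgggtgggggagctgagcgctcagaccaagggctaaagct
Atp5g2: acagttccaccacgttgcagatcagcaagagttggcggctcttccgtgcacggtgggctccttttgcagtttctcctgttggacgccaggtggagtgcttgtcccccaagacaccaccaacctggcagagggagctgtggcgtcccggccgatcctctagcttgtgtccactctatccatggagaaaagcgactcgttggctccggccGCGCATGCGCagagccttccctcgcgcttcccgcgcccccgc

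In complex V, both genes of the catalytic F1 head were lower. Atp5b, the catalytic beta subunit and the highest of the 42 genes in CPM, stood at 1949 and 1951 CPM with PBS and 1603 and 1627 CPM with lactic acid (fold change of -0.27 on the log2 scale with SE 0.02, edgeR quasi-likelihood adjusted p = 3.11e-18). Atp5a1, the alpha subunit, stood at 1031 and 1017 CPM with PBS and 894 and 881 CPM with lactic acid (-0.21, SE 0.02, adjusted p = 5.00e-11 in edgeR). In both the libraries of a group lay close together and the groups far apart, and both calls held in all 12 alternatives.

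The central stalk, which turns inside the head, moved unevenly. Atp5c1, its gamma subunit, was lower, with 314 and 314 CPM in PBS and 280.2 and 279.8 CPM in lactic acid (-0.17, SE 0.03, adjusted p = 2.33e-05 in edgeR). Atp5d, the delta subunit, had overlapping groups of 193 and 204 CPM and 189 and 204 CPM (-0.01, adjusted p = 0.815 in edgeR). Atp5e, the small epsilon subunit, was higher, at 49.6 and 52.5 CPM in PBS and 64.8 and 56.7 CPM in lactic acid (0.25, SE 0.07, adjusted p = 0.00108 in edgeR). That call was lost without lactic acid replicate 1, the higher of its libraries (adjusted p = 0.150 in edgeR, where the alternatives ran from 1.54e-04 to 0.150). The ratio of Atp5e to Atp5b counts was 0.0255 and 0.0269 with PBS and 0.0404 and 0.0348 with lactic acid (exact permutation p = 0.333, the smallest possible). These genes had been called in opposite directions, so the gap between groups follows from those calls and is no separate support.

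The c ring is the rotor in the membrane, and its c subunit is encoded by 3 genes that differ in the targeting sequence and give the same mature protein. These genes did not move alike. Atp5g1 had 97.3 and 91.4 CPM with PBS and 59.0 and 57.4 CPM with lactic acid, the deepest fall of the 42 genes (-0.70, SE 0.05, adjusted p = 8.04e-17 in edgeR). Atp5g3 stood at 257 and 255 CPM with PBS and at 224 and 224 CPM with lactic acid, also lower (-0.19, SE 0.04, adjusted p = 4.51e-06 in edgeR). Atp5g2, with 181 and 183 CPM in PBS and 182 and 188 CPM in lactic acid, had overlapping groups (0.02, adjusted p = 0.634 in edgeR). The ratio of Atp5g1 to Atp5g2 counts was 0.539 and 0.50 with PBS and 0.324 and 0.306 with lactic acid, a log2 difference of -0.72 (exact permutation p = 0.333, the smallest possible). Summed, the 3 genes gave 535 and 529 CPM with PBS and 465 and 468 CPM with lactic acid.

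The pseudogene record Gm10039 shares near-identical sequence with Atp5g1 and held 36.0% as many reads, so the authors' counting could split reads between them. Gm10039 was lower too, with 34.3 and 32.8 CPM in PBS and 20.3 and 22.4 CPM in lactic acid (-0.65, adjusted p = 6.24e-09 in edgeR). With the reads of both summed, the change of Atp5g1 was -0.69.

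**Figure D2:**
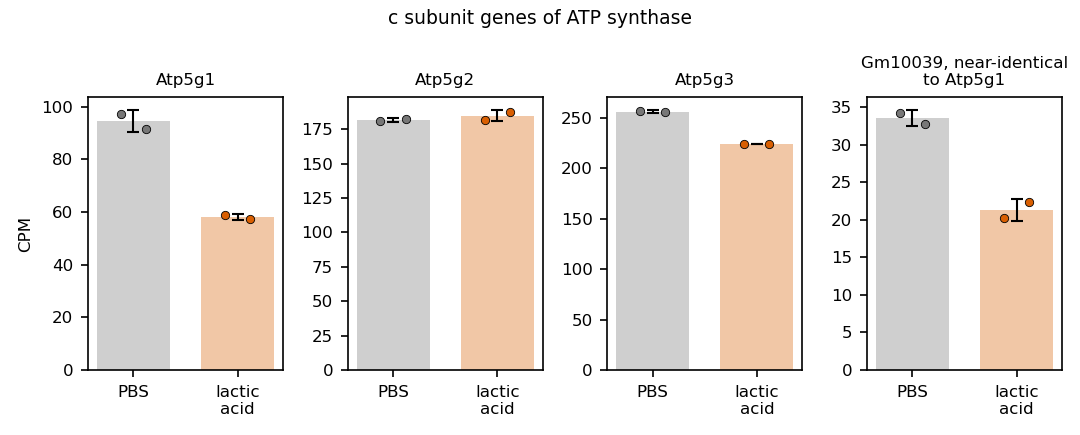
CPM (y axis, from 0, with its own scale in each panel) of the 3 c subunit genes and of Gm10039 in PBS and lactic acid, with points for libraries, bars for the mean and whiskers for the SD (n = 2). Atp5g1 and Gm10039 are lower with lactic acid, Atp5g3 by less, and the libraries of Atp5g2 overlap.

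The peripheral stalk holds the head still while the ring turns. Lower were 3 of its 4 tested genes, or 75%, against 24.3% of all genes tested and 44.1% of the abundant ones. Atp5f1, subunit b, had 218 and 228 CPM with PBS and 161 and 168 CPM with lactic acid (-0.44, SE 0.04, adjusted p = 2.98e-15 in edgeR). Wdr77 overlaps it on the other strand with 26.8% as many reads and was itself lower, at 57.6 and 54.4 CPM and 49.2 and 47.5 CPM. Strand use in the counting is not given, so whether these genes share reads is not known. Atp5h, subunit d, had 101 and 106 CPM with PBS and 79.5 and 77.1 CPM with lactic acid (-0.40, SE 0.05, adjusted p = 2.31e-10 in edgeR). Its near-identical copy Gm10250, with 21.3% as many reads, had overlapping groups of 20.9 and 18.6 CPM and 16.6 and 21.6 CPM, and with these reads added the change of Atp5h was -0.34. Atp5o, which joins the stalk to the head, had 57.1 and 49.9 CPM with PBS and 45.1 and 43.9 CPM with lactic acid (-0.26, SE 0.07, adjusted p = 0.00101 in edgeR). Its call was lost without PBS replicate 1 (adjusted p = 0.0810 in edgeR, alternatives 1.99e-05 to 0.0810). Atp5j, coupling factor 6, had overlapping groups of 80.1 and 70.4 CPM and 73.4 and 73.5 CPM (-0.03, adjusted p = 0.664 in edgeR), and Gabpa overlaps it on the other strand with 115% as many reads. A second record named Atp5o (ENSMUSG00000116933) had 0 reads in all 4 libraries, where 3 counts would be 0.175 to 0.191 CPM.

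Among the membrane subunits next to the ring, Atp5j2, subunit f, was lower, with 105 and 109 CPM in PBS and 81.0 and 81.6 CPM in lactic acid, groups well apart (-0.39, SE 0.05, adjusted p = 2.28e-10 in edgeR). Atp5l, subunit g, had 74.5 and 68.6 CPM with PBS and 68.8 and 62.5 CPM with lactic acid (-0.12, adjusted p = 0.0754 in edgeR), and 7 near-identical copies held 33.8% as many reads. It was called lower without lactic acid replicate 1 or PBS replicate 2 (adjusted p = 0.0245 and 0.0149 in edgeR, alternatives 0.0149 to 0.588). Atp5k, subunit e, also overlapped, with 24.3 and 30.0 CPM and 26.2 and 22.1 CPM (-0.17, adjusted p = 0.152 in edgeR), and passed without lactic acid replicate 1 or PBS replicate 1 (adjusted p = 0.0258 and 0.0127 in edgeR, alternatives 0.0127 to 0.922). Atp5mpl, a small proteolipid, did not pass (-0.01, adjusted p = 0.908 in edgeR). Atp5s went the other way, from 5.92 and 7.99 CPM to 12.8 and 13.0 CPM, the largest rise of the 42 genes (0.88, SE 0.15, adjusted p = 2.15e-06 in edgeR). It had 94 to 215 reads a library, the fewest of the genes tested here, encodes coupling factor B and is listed by RefSeq as Dmac2l. It is not a core subunit of the synthase, and without it 9 of 16 genes were lower and 1 higher.

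Complex II, which is also the succinate dehydrogenase of the TCA cycle, was called in 1 gene. Sdha, the flavoprotein that oxidises succinate, was lower, with 285 and 288 CPM in PBS and 256 and 267 CPM in lactic acid (-0.13, SE 0.03, adjusted p = 0.00103 in edgeR), and kept the call in all 12 alternatives. Sdhb, the iron-sulphur subunit, had overlapping groups of 95.5 and 84.1 CPM and 91.8 and 84.2 CPM (-0.03, SE 0.05, adjusted p = 0.704 in edgeR). The membrane anchors Sdhc and Sdhd lay apart by little. Sdhc had 132 and 139.8 CPM with PBS and 147 and 142 CPM with lactic acid (0.09, SE 0.04, adjusted p = 0.0685 in edgeR), and Sdhd 137 and 136 CPM and 132 and 133 CPM (-0.04, SE 0.04, adjusted p = 0.424 in edgeR). Sdhc passed as higher under upper-quartile scaling and without PBS replicate 2 (adjusted p = 0.0257 and 0.0352 in edgeR, alternatives 0.0257 to 0.519). The ratio of Sdha to Sdhc counts was 2.16 and 2.06 with PBS and 1.74 and 1.88 with lactic acid (exact permutation p = 0.333, the smallest possible).

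In complex III the redox subunits moved in opposite directions. Uqcrfs1, the Rieske iron-sulphur protein, was higher, with 101 and 91.0 CPM in PBS and 136 and 116 CPM in lactic acid (0.40, SE 0.10, adjusted p = 0.0389 in edgeR). Its libraries spread widely within each group, and among genes of at least 1 CPM in at least 2 libraries it did not pass (adjusted p = 0.0620 in edgeR, alternatives 7.44e-18 to 0.0620). Cyc1, which carries the haem that passes electrons to cytochrome c, was lower, with 173 and 177 CPM in PBS and 153 and 165 CPM in lactic acid (-0.13, SE 0.04, adjusted p = 0.00349 in edgeR), but not without lactic acid replicate 1 (adjusted p = 0.133 in edgeR, alternatives 4.96e-04 to 0.133). The ratio of Uqcrfs1 to Cyc1 counts was 0.585 and 0.515 with PBS and 0.890 and 0.704 with lactic acid (exact permutation p = 0.333, the smallest possible). Its gap between groups follows from the opposite calls of these genes and is no separate support.

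Uqcrb, a small subunit near the ubiquinone site, was lower, with 54.3 and 50.4 CPM in PBS and 41.1 and 41.0 CPM in lactic acid (-0.35, SE 0.07, adjusted p = 1.83e-05 in edgeR), and its copy Gm2962 held 10.5% as many reads. The core genes Uqcrc1 (259 and 239 against 241 and 234 CPM) and Uqcrc2 (104 and 99.4 against 99.5 and 103 CPM) overlapped between groups and did not pass (adjusted p = 0.127 and 0.906 in edgeR). Uqcrc1 passed as lower without PBS replicate 2 (adjusted p = 0.0148 in edgeR, alternatives 0.0148 to 0.855). Uqcrh, the hinge protein that docks cytochrome c, and the small subunits Uqcrq, Uqcr10 and Uqcr11 changed by 0.03 to 0.05 on the log2 scale, with overlapping groups. Cycs, the mobile carrier between complexes III and IV that also triggers apoptosis when released, was lower, with 136 and 133 CPM in PBS and 123 and 122 CPM in lactic acid (-0.14, SE 0.04, adjusted p = 0.00453 in edgeR). DESeq2 did not call it (adjusted p = 0.0617, alternatives 0.00284 to 0.0617), and 3 near-identical copies held 8.19% as many reads.

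In complex IV the matrix subunits were lower. Cox5a had 73.8 and 74.9 CPM with PBS and 63.7 and 64.6 CPM with lactic acid (-0.21, SE 0.06, adjusted p = 0.00118 in edgeR), and Cox5b 94.8 and 98 CPM and 84.3 and 88.4 CPM (-0.16, SE 0.05, adjusted p = 0.00461 in edgeR). The call of Cox5b was lost in DESeq2 (adjusted p = 0.0683) and in edgeR without lactic acid replicate 1 (adjusted p = 0.0953, alternatives 0.00174 to 0.0953). Cox6a1, the general isoform of a regulatory subunit, was lower as well, with 164 and 165 CPM and 150.1 and 149 CPM (-0.13, SE 0.04, adjusted p = 0.00293 in edgeR). All 3 had groups that did not overlap, but so did 72.3% of all genes tested, and so did Cox4i1 and Cox6b1, which were not called. Cox4i1, another regulatory subunit, had 263 and 262 CPM with PBS and 249 and 255 CPM with lactic acid and did not pass (-0.06, adjusted p = 0.142 in edgeR), and Emc8 overlaps it on the other strand with 22.7% as many reads. Cox6b1, on the side that faces cytochrome c, had 75.2 and 81.6 CPM and 74.3 and 74.7 CPM (-0.08, adjusted p = 0.259 in edgeR). Cox6c overlapped between groups (0.01, adjusted p = 0.902 in edgeR), and Vps13b, on the other strand at its position, held 104% as many reads.

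The genes of complex IV that rose encode small membrane subunits and a supercomplex factor. Cox7a2l, which links complex III to complex IV in supercomplexes, had 137 and 142 CPM with PBS and 158 and 165 CPM with lactic acid (0.21, SE 0.04, adjusted p = 1.21e-05 in edgeR). Cox8a had 157 and 154 CPM and 169 and 174 CPM (0.14, SE 0.04, adjusted p = 0.00165 in edgeR). Both kept the call in all 12 alternatives. Cox7c had 110.1 and 125 CPM and 138 and 132 CPM (0.20, SE 0.05, adjusted p = 5.98e-04 in edgeR), and Cox7a2, the general isoform of its subunit, 56.3 and 53.6 CPM and 63.3 and 61.6 CPM (0.18, SE 0.06, adjusted p = 0.00954 in edgeR). Cox7c lost the call in limma on log2(FPKM + 1) and log2(FPKM + 0.1) (adjusted p = 0.0711 and 0.0723) and in edgeR without PBS replicate 1 (adjusted p = 0.0711, alternatives 1.29e-07 to 0.0723). Cox7a2 lost it in DESeq2 (adjusted p = 0.121) and in edgeR without lactic acid replicate 1 or PBS replicate 2 (adjusted p = 0.0932 and 0.117, alternatives 0.00448 to 0.121). The ratio of Cox7a2l to Cox7a2 counts overlapped between groups, at 2.43 and 2.65 with PBS and 2.49 and 2.67 with lactic acid. Cox7b had overlapping groups of 81.7 and 85.6 CPM and 83.6 and 79.6 CPM (-0.04, adjusted p = 0.590 in edgeR). Of the tested genes numbered Cox7 and Cox8, 4 of 5 were higher and 0 lower, and of those numbered Cox4 to Cox6, 0 of 6 were higher and 3 lower. Higher and lower were 24.7% and 24.3% of all genes tested, and 25.7% and 44.1% of the abundant ones. The division by number was made after the values were seen and carries no test.

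**Figure D3:**
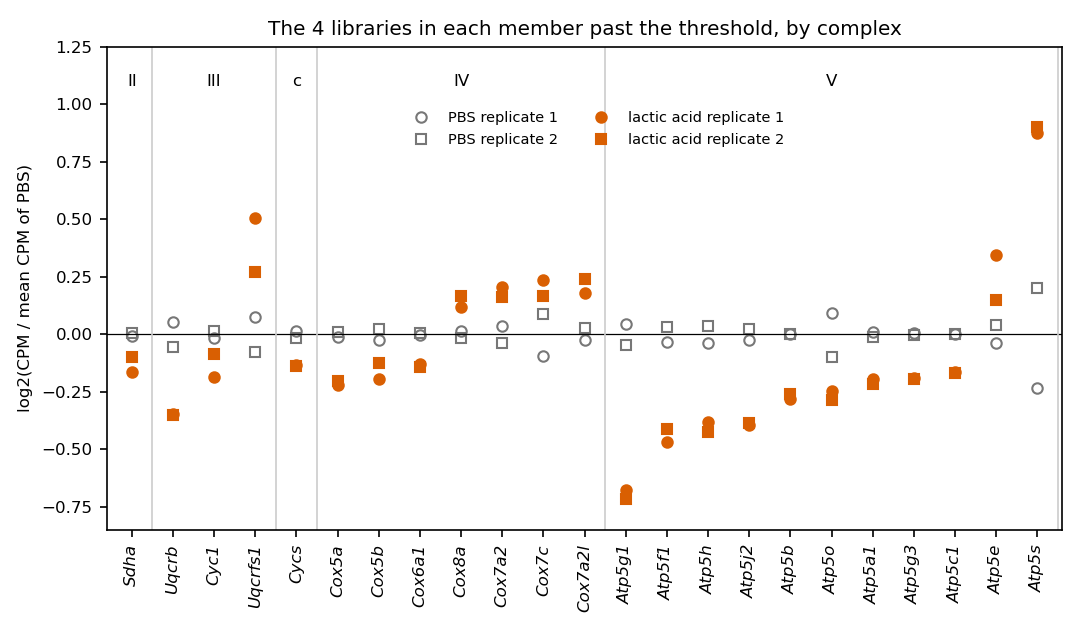
Level in each library relative to the mean of PBS (y axis, log2 of the CPM ratio) for the 23 genes called (x axis, by complex; c marks cytochrome c), with separate symbols for PBS and lactic acid. In all 23 both lactic acid libraries lie on the same side of the pair of PBS libraries, as they do in 72.3% of all genes tested.

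The 7 tissue isoforms of complex IV had too few reads to test. Cox4i2, known from lung, had 1 to 3 reads a library and Cox7a1, of heart and skeletal muscle, 5 to 10. Cox8b, also of muscle, had 1 read in all, Cox6b2, of testis, 1 to 7 a library, and Cox7b2 and Cox8c had 0 in all 4. Cox6a2, the heart and muscle isoform, had 1 and 7 reads with PBS and 21 and 9 with lactic acid. Without the filter on low counts it passed (adjusted p = 0.021 in edgeR), with alternatives of 0.00963 to 0.248, the highest of them without PBS replicate 1. The 9 muscle markers summed to 1.95 and 2.57 CPM with PBS and 7.31 and 5.14 CPM with lactic acid, and the troponin gene Tnnt2 among them had 10 and 6 reads against 83 and 53. Myh6, Myh7, Myog and Myod1 were at 0, and the part of muscle genes in the reads of Cox6a2 was not tested. The 6 germ cell markers summed to 0.189 to 0.445 CPM, with Tnp1 and Cyct at 0, and their part in the reads of Cox6b2 was not tested.

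Levels can be compared between genes per kilobase of the gene length in the table. In PBS, the mean level was 460.2 CPM per kilobase for Atp5b and 327 for Atp5a1, and the lowest of complex V were Atp5l at 11.1 and Atp5s at 3.41. Complex IV ran from 285 CPM per kilobase for Cox8a to 23.3 for Cox6c among its tested genes. Complex III ran from 155 for Uqcr10 to 39.9 for Uqcrc2, and complex II from 111 for Sdhd to 40.1 for Sdhb. With lactic acid Atp5b stood at 381 and Cox8a at 315 CPM per kilobase, and Atp5b was the highest of the 42 in both groups. The lengths join the exons of all transcripts of a gene, so long rare exons lower a gene on this scale (Atp5l has 6443 bases and Atp5g1 4912).

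**Figure D4:**
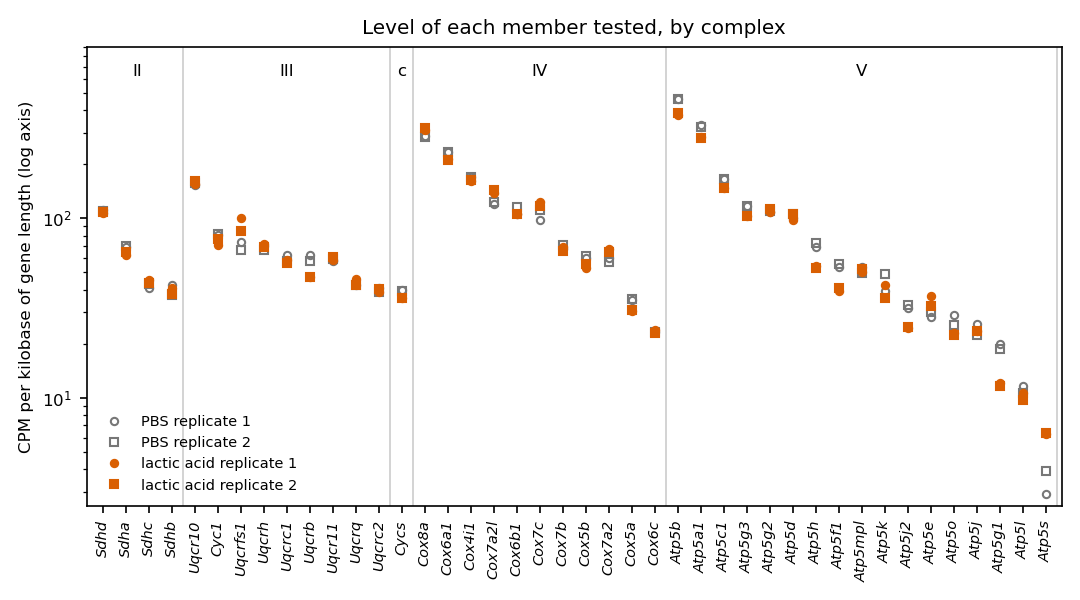
Level of each of the 42 tested genes in every library (y axis, CPM per kilobase of gene length, log axis), by complex (c marks cytochrome c). Atp5b leads complex V and Cox8a complex IV.

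The mitochondrial genome encodes partners of these subunits. mt-Co1, the catalytic subunit of complex IV, was higher, with 9475 and 9511 CPM in PBS and 12063 and 12094 CPM in lactic acid (0.35, SE 0.01, adjusted p = 1.11e-32 in edgeR). mt-Cytb, a subunit of complex III, was lower, with 4317 and 4411 CPM and 3037 and 3065 CPM (-0.52, SE 0.02, adjusted p = 8.74e-35 in edgeR). In both the groups lay far apart. mt-Co2, mt-Co3 and mt-Atp6 had 167 to 783 reads a library and overlapping groups (adjusted p = 0.478, 0.938 and 0.808 in edgeR), mt-Atp8 had 3 to 6, and the handling of reads with several genomic positions is not given. mt-Co2 had 27.4 and 45.7 CPM with PBS and 24.7 and 29.5 CPM with lactic acid, and passed as lower without lactic acid replicate 2, without PBS replicate 1 and with a replicate block (adjusted p = 1.34e-06, 2.08e-14 and 4.38e-04 in edgeR, the highest of its alternatives being 0.897). The ratio of the mitochondrial to the nuclear genes of complex IV, by summed counts, was 7.34 and 7.22 with PBS and 9.16 and 9.15 with lactic acid (exact permutation p = 0.333, the smallest possible). Its mitochondrial sum was 9513 and 9569 CPM with PBS and 12099 and 12135 CPM with lactic acid. Nearly all of that sum was mt-Co1, so the ratio mainly follows this gene and says little on mt-Co2 and mt-Co3. All 37 genes of the mitochondrial genome took 2.25% and 2.26% of the counts with PBS and 2.25% and 2.29% with lactic acid.

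Assembly factors build the complexes without staying in them, and the list used here also holds genes that act otherwise on a complex, such as Atpif1 and Lrpprc. Of 36 genes listed, 33 were tested, 8 were higher and 7 lower (24.2% and 21.2%, against 24.7% and 24.3% of all genes tested), with a median change of 0.03 on the log2 scale. All 4 genes listed for complex V passed, 3 as higher and 1 as lower, where 49.0% of all genes tested were called in either direction. Tmem70, which helps to assemble the c ring, had 52.5 and 49.4 CPM with PBS and 70.2 and 75.5 CPM with lactic acid (0.52, SE 0.06, adjusted p = 1.23e-10 in edgeR). Atpaf2, a chaperone of the alpha subunit, had 48.5 and 50.3 CPM and 33.4 and 36.1 CPM (-0.51, SE 0.07, adjusted p = 2.39e-08 in edgeR). Atpif1, which inhibits ATP hydrolysis by the synthase, had 35.7 and 34.5 CPM and 45.8 and 46.5 CPM (0.39, SE 0.07, adjusted p = 6.25e-06 in edgeR). These groups did not overlap, as in 72.3% of all genes tested. Atpaf1, a chaperone of the beta subunit, passed narrowly (0.33, adjusted p = 0.0394 in edgeR) and lost the call in 6 of 12 alternatives (0.0291 to 0.209).

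Among 19 tested genes listed for complex IV, 3 were higher and 5 lower (15.8% and 26.3%, against 24.7% and 24.3% of all genes tested). Lrpprc, which stabilises mitochondrial mRNAs, had 182 and 181 CPM with PBS and 139.7 and 137 CPM with lactic acid (-0.39, SE 0.04, adjusted p = 7.73e-13 in edgeR). Coa5 and Coa7 were also lower (-0.24 and -0.88, adjusted p = 6.44e-07 and 2.39e-06 in edgeR). Of 6 factors of complex III, 2 were higher and 0 lower (33.3% and 0%, against 24.7% and 24.3% of all genes tested). Uqcc2 had 67.7 and 66.6 CPM and 82.4 and 84.7 CPM (0.32, SE 0.05, adjusted p = 1.40e-06 in edgeR). Lyrm7, which guides the Rieske protein, had 9.01 and 7.41 CPM and 10.8 and 14.2 CPM (0.61, SE 0.15, adjusted p = 6.17e-04 in edgeR), and did not pass without lactic acid replicate 2 (adjusted p = 0.0737 in edgeR, alternatives 5.26e-05 to 0.0737). Of 4 factors of complex II, Sdhaf2 passed as lower (-0.17, adjusted p = 0.0474 in edgeR) and lost the call in 7 of 12 alternatives (0.0324 to 0.256). Of 5 genes that handle cytochrome c or intermembrane proteins, Aifm1 passed as lower (-0.15, adjusted p = 0.0304 in edgeR) and lost the call in 5 of 12 alternatives (0.0231 to 0.260).

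Of 11 regulators of respiratory genes tested, 2 were higher and 5 lower (18.2% and 45.5%). Of all genes tested 24.7% were higher and 24.3% lower, and of the abundant genes 25.7% and 44.1%. Nrf1, whose product binds the NRF1 letters, had 59.2 and 66.4 CPM with PBS and 46.3 and 51.2 CPM with lactic acid (-0.36, SE 0.07, adjusted p = 4.31e-06 in edgeR). Gabpa, which overlaps Atp5j, had 93.3 and 89.5 CPM and 79.8 and 77.5 CPM (-0.22, SE 0.05, adjusted p = 2.61e-04 in edgeR). Pprc1, a coactivator of the PGC-1 family, was lower (-0.43, SE 0.04, adjusted p = 4.80e-14 in edgeR). Esrra, a nuclear receptor that drives respiratory genes, was higher, with 30.2 and 26.9 CPM in PBS and 48.7 and 45.6 CPM in lactic acid (0.72, SE 0.08, adjusted p = 7.63e-12 in edgeR). Ppargc1a, the coactivator PGC-1 alpha, had 0 to 9 reads a library.

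Subunits of complex I and mitochondrial ribosomal proteins were counted for comparison. Of 36 complex I subunits tested 11 were lower and 6 higher (30.6% and 16.7%, median change -0.01 on the log2 scale), and of 77 mitochondrial ribosomal proteins 27 were lower and 10 higher (35.1% and 13.0%, median -0.08). In complex V 52.9% were lower and 11.8% higher, and in complex IV 27.3% and 36.4%, against 44.1% and 25.7% of the abundant genes. Called in either direction were 64.7% of complex V and 63.6% of complex IV, against 69.8% of the abundant genes and 49.0% of all genes tested. The differences between these groups were not tested.

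**Figure D5:**
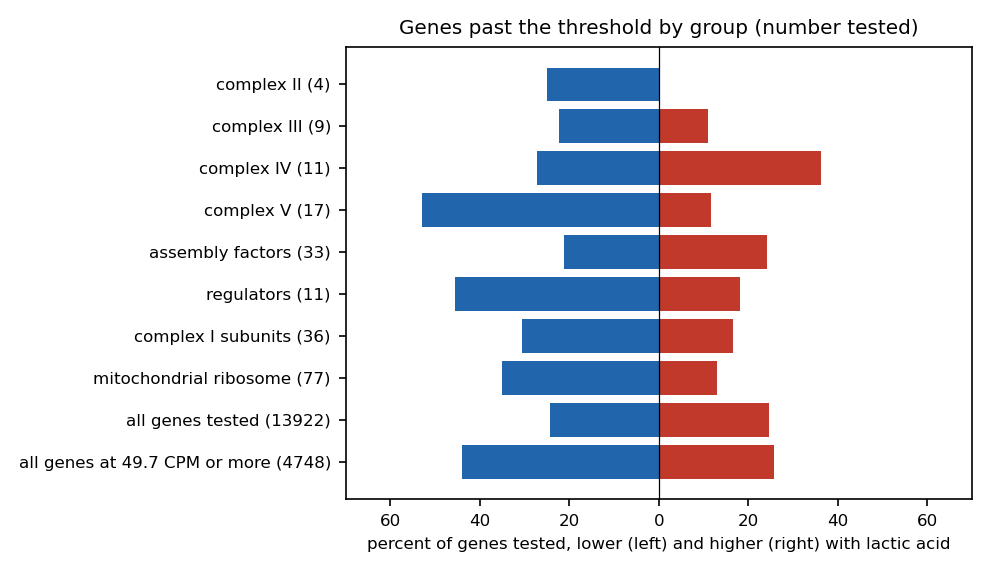
Percent of the genes tested that were lower (left, blue) and higher (right, red) with lactic acid (x axis) in each group (y axis, with the number tested). The lower share is 52.9% in complex V and the higher share 36.4% in complex IV, against 24.3% and 24.7% of all genes tested and 44.1% and 25.7% of the abundant genes with at least 49.7 CPM.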

How the data were processed

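The counts per gene were used as deposited by the authors. The submitters' processing notes name DESeq2 1.16.1, StringTie 1.3.3b, featureCounts 1.5.0-p3, HISAT2 2.0.5 and CASAVA, and as builds mm10 with GRCm38.p6, without roles. Strand use and the handling of reads with several positions are not given in the sources used here. The FPKM values deposited by the authors served only in 2 limma alternatives on log2(FPKM + 1) and log2(FPKM + 0.1).

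edgeR 4.0.16 in R 4.3.3 was run on the whole table, with filterByExpr (minimum count 10, minimum total 15), TMM factors of 0.983 to 1.017 and a quasi-likelihood fit with group as the only term (2 residual degrees of freedom). P-values are two-sided and were adjusted by the Benjamini-Hochberg method. The SE is the size of the log2 change over the square root of F. The fit was tested on simulated counts. A level of 3 counts is 0.175 to 0.191 CPM, counting error only. Alternatives were other scalings and filters, DESeq2 1.42.0, limma 3.58.1, a replicate block, leaving out each library and leaving out genes with copies.

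Near-identical copies were found with blastn 2.17.0 on GENCODE M21 transcripts (at least 98% identity over 150 bases), and overlapping partners are given from 10% of a gene's reads. Values per library are given for all Sdh genes, Cyc1, Cycs and the isoform groups, for the 5 smallest p and 2 highest levels of each complex, and for the 3 smallest p of the other lists, where the text needs them. The genes and lists were chosen with earlier results of these data known, and the ratios of gene pairs were not planned beforehand.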

Additional observations from a re-analysis of the deposited data

How the results depend on the processing

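Of the 23 genes called, 15 passed in all 12 alternatives. Of 515 values of single genes under alternatives 495 kept their side of the threshold, 13 lost it, 7 gained it and 0 reversed. Among the summary values, 289 of 315 stayed within 1.5 times or 1 SD, and the others follow. Among the 31 tested genes without a near-identical copy 10 were lower in all (32.3%, against 38.1% of the 42), 1 lower in complex III and 2 higher in complex IV. Genes with copies were left out there, so these counts could only fall. Complex III had 0 higher genes with at least 1 CPM in at least 2 libraries. Upper-quartile scaling gave 1 higher gene in complex II and a median of -0.0318 over the 42 genes. DESeq2 called 5 assembly factors higher and 4 lower, and as higher 3 complex I subunits and 4 mitochondrial ribosomal proteins. Leaving out each library gave 0 to 1 higher genes in complex II, 1 to 3 lower in complex III (1 without lactic acid replicate 1, 3 without PBS replicate 2) and 1 to 2 higher in complex V (1 without lactic acid replicate 1). It gave 5 to 8 higher and 4 to 7 lower assembly factors (5 without PBS replicate 2, 4 without lactic acid replicate 2) and 3 to 5 lower regulators (3 without lactic acid replicate 2). It gave 1 to 2 lower mitochondrial-genome subunits (2 without lactic acid replicate 2 or PBS replicate 1) and 6 to 8 higher mitochondrial ribosomal proteins, against 10 with all libraries (6 without PBS replicate 1). The median of the 42 genes then ran from -0.0739 to -0.0489 and that of complex II from -0.0900 to 0.00271. With the replicate number as a block, 2 mitochondrial-genome subunits were lower, the added one being mt-Co2, and 3459 genes were higher and 3393 lower of all, against 3445 and 3377. Libraries with the same number did not deviate together (correlation across genes 0.00383). The labels do not say whether they were handled in pairs, and with 2 libraries a group this correlation cannot decide it. Adding the reads of near-identical copies, chosen after seeing the data, changed no call. The cause of these changes was not tested. A lone library left in a group is assumed to vary like the others.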

Other observations

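Some subunit genes lie outside the symbols used here and were looked at after the other values were seen. Ndufa4, named for complex I, counted with it above and known as a subunit of complex IV, was lower, at 107 and 114 CPM with PBS and 89.7 and 94.7 CPM with lactic acid (fold change of -0.26 on the log2 scale with SE 0.05, edgeR quasi-likelihood adjusted p = 2.31e-06), and kept that call in all 12 alternatives. Usmg5, a membrane subunit of complex V, had overlapping groups of 84.9 and 95.5 CPM and 88.1 and 83.9 CPM and did not pass (-0.07, adjusted p = 0.268 in edgeR). It passed as lower without PBS replicate 1 (adjusted p = 0.0193 in edgeR, alternatives 0.0193 to 0.907). Among complex I subunits, Ndufb3 had the smallest p and was higher, at 29.6 and 33.3 CPM with PBS and 44.5 and 49.0 CPM with lactic acid (0.57, SE 0.08, adjusted p = 5.18e-09 in edgeR).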
